A study of Homo sapiens with 5 samples.

Results

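The 37 genes described here are the measured members of 3 families that act on pre-mRNA splicing in human cells: SR proteins with their Tra2 relatives, hnRNPs and CLK kinases. They were taken from 18417 genes that had a probe naming exactly 1 gene symbol, by symbols starting with SRSF and a number or with HNRNP, and by CLK1 to CLK4, TRA2A and TRA2B. This gave 12 SR protein genes, 2 Tra2 genes, 19 hnRNP genes and 4 CLK genes, and the pseudogene HNRNPA3P1 was left out. Where a gene had more than 1 such probe, the one with the highest mean over all 5 arrays stands for it. The cells were RS4;11, an established human leukemia line with a rearranged MLL gene, given as RS4.11 in the labels. Cells on 3 arrays had received 10 uM SB216763, which blocks the kinase GSK-3, and cells on 2 arrays the solvent DMSO, each for 20 h, and total RNA was measured on Affymetrix whole-transcript arrays. The line is 1 cell line grown in culture, and the labels name no separate cultures, so the p-values rest on array-to-array spread that could be technical only. All differences are SB216763 minus control in log2 units.

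SR proteins bind exonic enhancers through RNA recognition motifs and recruit the spliceosome through a tail rich in arginine and serine, the RS domain. Their activity and place in the nucleus depend on phosphorylation of that tail, by SRPK kinases in the cytoplasm and by CLK kinases in the nucleus. Heterogeneous nuclear ribonucleoproteins, hnRNPs, coat nascent transcripts and often act in the opposite sense, by binding silencers, and many genes of all 3 families control their own mRNA through exons or retained introns that mark a transcript for decay or hold it in the nucleus. GSK-3 itself is a serine/threonine kinase that has been described to phosphorylate splicing factors, among them SFPQ in T cells. A whole-transcript probe reports 1 value per transcript cluster, so none of the values below separates such isoforms.

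A gene counted as above background on an array where it exceeded the 95th percentile of 341 olfactory receptor genes, which lay between 5.98 and 6.19 in log2 units. By this measure 34 of the 37 genes were above background on all 5 arrays, and SRSF12, HNRNPCL1 and HNRNPCL2 were above it on none. Of the lineage markers, 3 of 9 measured B cell precursor genes (CD79B, PAX5 and IGLL1) were above background on all arrays and 5 on none. For myeloid genes it was 6 of 6 on all arrays (MPO, ELANE, CD14, LYZ, CSF1R and ITGAM). Also above it on all arrays were 1 of 8 T and NK cell genes (CD8A) and 2 of 4 erythroid genes (GATA1 and KLF1). The splicing genes shared a pattern within each group of arrays. Of the 34 genes above background, 32 had their lowest SB216763 value on SB216763 replicate 2, against 48.1% of the 12071 genes above background on all arrays, and 31 had the lower control value on control replicate 1, against 69.1%. Whether this array pattern has a part in the differences was not tested. Each call among the 37 genes is therefore given with and without these arrays. Calls among other splicing genes are mostly refitted as counts per list.

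**Figure D1:**
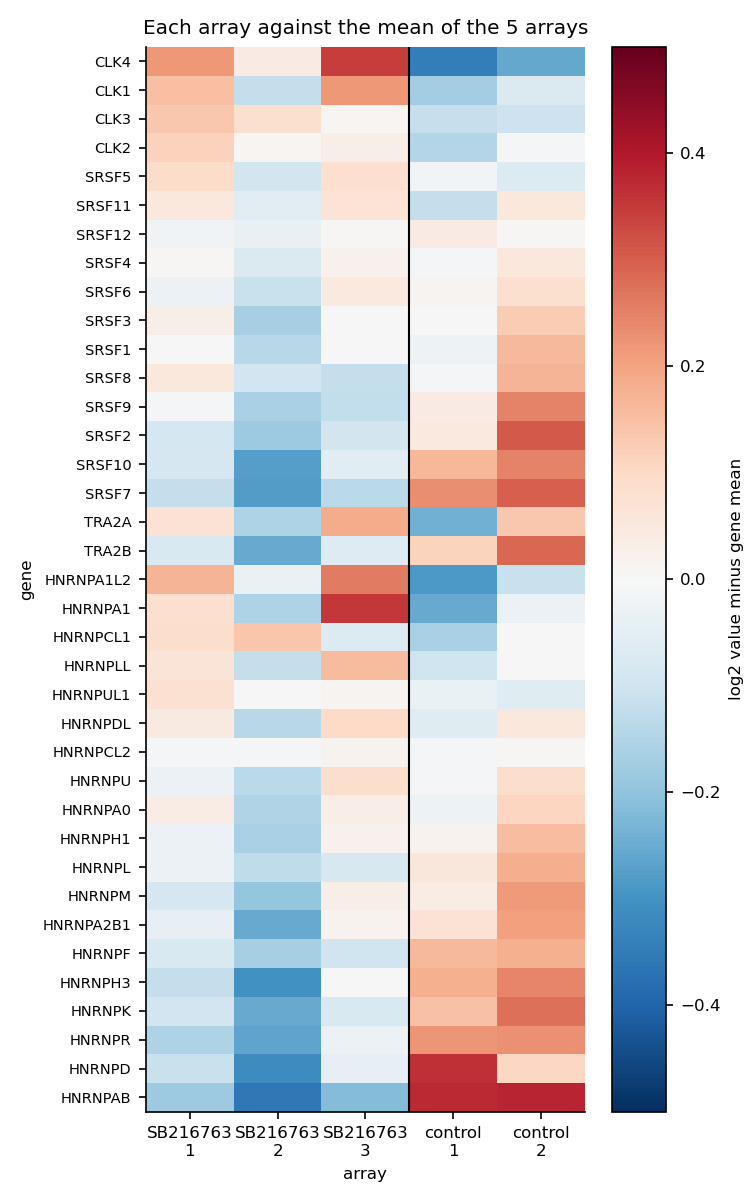
Log2 value of each of the 37 genes on each array minus the gene's mean over the 5 arrays, with the 3 SB216763 arrays left of the 2 control arrays and genes grouped by family. SB216763 replicate 2 is the bluest SB216763 column for most genes, and HNRNPAB and CLK4 show the widest contrast between the groups, in opposite directions.

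With SB216763, 1 of the 37 genes rose and 5 fell by limma at an adjusted p under 0.05, while 31 did not pass. CLK4, a kinase of SR proteins, was the gene that rose. The 5 that fell were the SR protein gene SRSF7 and the hnRNP genes HNRNPAB, HNRNPR, HNRNPK and HNRNPF. Together they were 16.2% of the members, against 13.1% of all 18417 genes, which is a share near the background. By direction, 2.70% of the members were called higher, against 7.21% of all genes, and 13.5% were called lower, against 5.92%. At an unadjusted p under 0.05 there were 3 higher and 12 lower members, where 14.3% of all genes were higher and 12.2% lower. The SB216763 and control arrays did not overlap for 19 members (51.4%), 5 of them higher and 14 lower, against 41.4% of all genes, 21.6% being higher and 19.9% lower. The median difference of the members was -0.08, and that of all genes was 0.00. The replicate spread of the members' median was 0.08, about as large as the median itself, which was -0.14 without control replicate 1, -0.04 without control replicate 2, -0.04 without SB216763 replicate 2 and -0.14 after quantile normalization. No difference reached 2-fold, the widest being the 1.55-fold lower HNRNPAB.

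**Figure D2:**
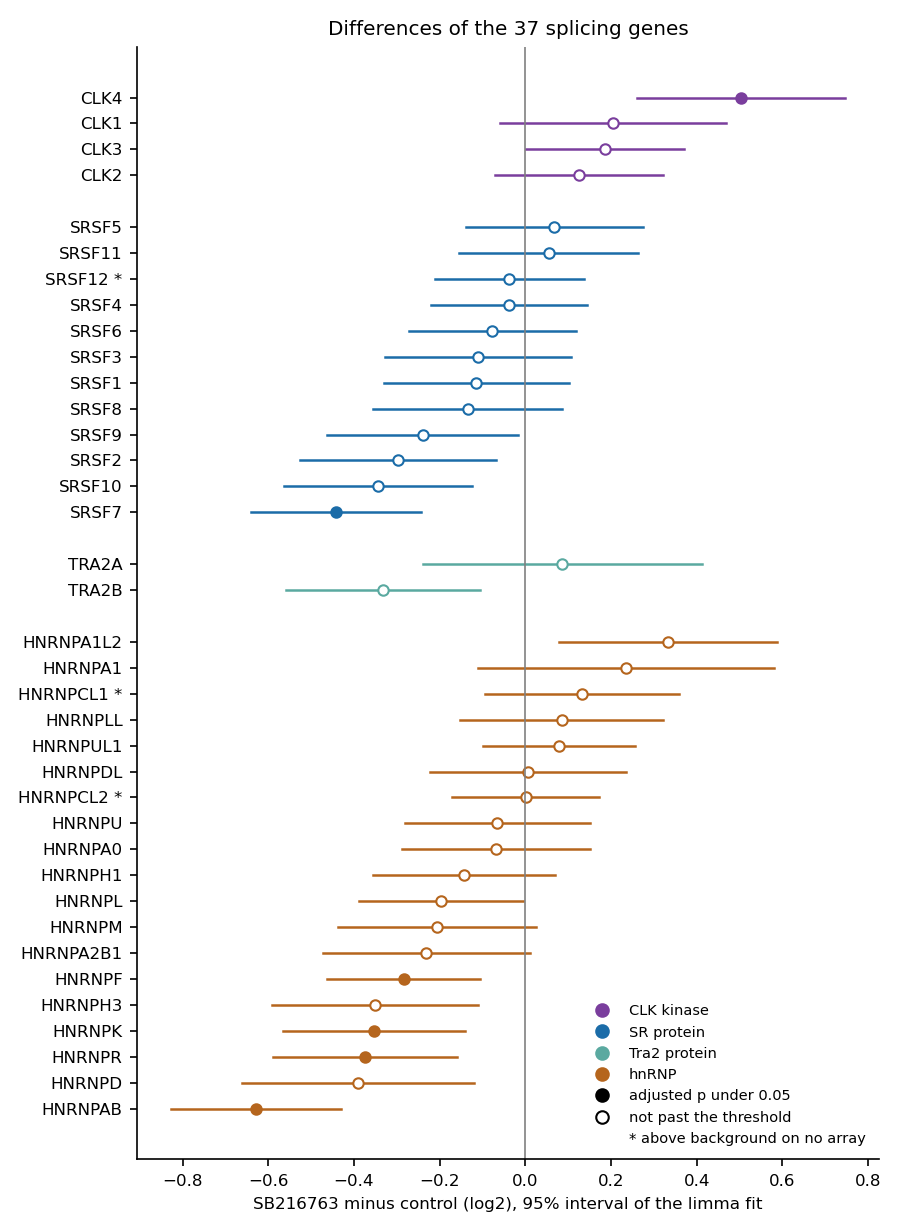
Difference between SB216763 and control (log2) for each of the 37 genes, by family, with the 95% interval of the limma fit as a line. Filled points passed an adjusted p of 0.05: CLK4 at 0.50 lies to the right of 0, and SRSF7, HNRNPF, HNRNPK, HNRNPR and HNRNPAB lie to the left, the last at -0.63.

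The CLK kinases phosphorylate SR proteins in the nucleus and thereby release them from storage in nuclear speckles. CLK4 measured 9.17, 8.99 and 9.29 log2 units on the SB216763 arrays, against 8.60 and 8.69 on the control arrays. Every SB216763 array was above both control arrays. The difference was 0.50 (SE 0.10, adjusted p = 0.0196 by limma), a 1.42-fold increase. A dimmer probe of CLK4 averaged 8.77 ± 0.11 (SD, n = 3) with SB216763 and 8.44 ± 0.05 (SD, n = 2) in controls, a difference of 0.33 (SE 0.10) that did not pass when all 33297 probes were adjusted together (limma adjusted p = 0.111).

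The other CLK genes did not pass the threshold. CLK1, the closest relative of CLK4 in sequence, measured 10.15, 9.88 and 10.21 with SB216763, against 9.82 and 9.92 in controls. Its groups overlapped, since SB216763 replicate 2 lay below control replicate 2, and the difference was 0.20 (SE 0.11, limma adjusted p = 0.313, 95% interval -0.06 to 0.47). CLK3 measured 7.66, 7.61 and 7.54 with SB216763, against 7.41 and 7.42 in controls. These arrays did not overlap, and the difference was 0.19 (SE 0.08, limma adjusted p = 0.185). CLK2 measured 9.96, 9.86 and 9.87 with SB216763, against 9.70 and 9.84 in controls, a difference of 0.13 (SE 0.08, limma adjusted p = 0.416) with all 3 SB216763 arrays above both controls by a small margin. All 4 CLK differences were positive in the reported fit and in the 14 other settings, and CLK1 and CLK3 passed in 1 of those settings, that with array weights. These settings refit the same arrays and are not independent of each other, and 9325 of the 18417 genes had a positive difference. Groups did not overlap in the higher direction for 3 of the 4 CLK genes, against 21.6% of all genes.

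Among the 12 SR protein genes 1 fell, while 11 missed the threshold, and the median difference was -0.11. The 1 gene is 8.33% of the family, near the 5.92% of all genes that fell, and 0 of the 12 rose, where 7.21% of all genes did. SRSF7 encodes an SR protein with a zinc knuckle that also serves as an adaptor for mRNA export. It measured 10.16, 10.00 and 10.15 with SB216763, against 10.51 and 10.58 in controls. The groups were well apart, and the gene fell by 0.44 (SE 0.09, adjusted p = 0.0152 by limma), 1.36-fold.

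The next SR gene by size, named with its arrays after its values were seen, was SRSF10, which represses splicing in its dephosphorylated state, at 9.47, 9.28 and 9.51 with SB216763, against 9.72 and 9.81 in controls. Its groups did not overlap, but the difference of -0.34 (SE 0.09) had a limma adjusted p of 0.0530. A second, dimmer SRSF10 probe gave a difference of -0.37 (SE 0.11, limma adjusted p = 0.127 over all probes). SRSF2, also called SC35, a component of nuclear speckles whose gene is recurrently mutated in myeloid neoplasms, measured 10.85, 10.75 and 10.84 with SB216763, against 10.98 and 11.24 in controls. Its lower value was on control replicate 1, and the difference of -0.30 (SE 0.10, limma adjusted p = 0.0926) did not pass. SRSF9 differed by -0.24 (SE 0.10, limma adjusted p = 0.159), again with no overlap between the groups.

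SRSF1, the founding member of the family, showed little difference. It measured 12.35, 12.21 and 12.35 with SB216763, against 12.33 and 12.51 in controls, and differed by -0.11 with a 95% interval of -0.33 to 0.10. SRSF3, the smallest SR protein, measured 11.15, 10.95 and 11.12 with SB216763, against 11.12 and 11.25 in controls, with the same difference of -0.11 (95% interval -0.33 to 0.11). For both genes control replicate 1 lay within the range of the SB216763 arrays and control replicate 2 above it. The remaining SR protein genes above background, SRSF4, SRSF5, SRSF6, SRSF8 and SRSF11, differed by between -0.13 (SRSF8) and 0.07 (SRSF5), all with overlapping groups. SRSF8 is a close relative of SRSF2, and its annotation shares a transcript record with SRSF1, so its probe may read more than 1 gene. SRSF12, a relative of SRSF10, was not above background on any array, so its difference carries little information.

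The Tra2 proteins bind purine-rich exonic enhancers and have RS domains on both sides of their RNA recognition motif. TRA2B measured 11.41, 11.23 and 11.42 with SB216763, against 11.60 and 11.77 in controls. The groups did not overlap, and the difference of -0.33 (SE 0.10) did not pass (limma adjusted p = 0.0653). TRA2A, read from its brightest probe, measured 10.65, 10.42 and 10.76 with SB216763, against 10.34 and 10.71 in controls, a difference of 0.09 (SE 0.14, limma adjusted p = 0.774) with overlapping groups. Its second, dimmer probe behaved differently, at 9.50, 9.39 and 9.59 with SB216763, against 8.82 and 8.91 in controls. Each SB216763 array was above both controls by a wide margin, and the difference was 0.63 (SE 0.09), 0.0238 being its limma adjusted p over all 33297 probes, of which 5.73% passed, 3.49% being higher. This call held without SB216763 replicate 2 (limma adjusted p = 0.0357) and not without SB216763 replicate 1 (0.119), SB216763 replicate 3 (0.0813), control replicate 1 (0.178) or control replicate 2 (0.134), while the difference stayed between 0.58 and 0.68. These 5 refits were chosen after the values had been seen. The 2 TRA2A probes are annotated with different transcript records, and which exons each reads was not analysed here.

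Among the 19 hnRNP genes 4 fell, while 15 missed the threshold, and the median difference was -0.14. The 4 genes are 21.1% of the family, against 5.92% of all genes called lower, and 0 rose, against 7.21%. Of all 12856 genes above background on at least 2 arrays, fitted alone, 10.9% were called lower and 13.1% higher. The hnRNP genes called in that fit were HNRNPAB, HNRNPD, HNRNPF, HNRNPH3, HNRNPK and HNRNPR, all lower. HNRNPAB, related to the AU-rich element binding protein HNRNPD, showed the largest difference of the 37 genes. It measured 11.67, 11.50 and 11.64 with SB216763, against 12.23 and 12.24 in controls. The 2 controls lay within 0.01 of each other and far above every SB216763 array. HNRNPAB averaged 11.60 ± 0.09 (SD, n = 3) with SB216763 and 12.23 ± 0.01 (SD, n = 2) in controls, and it fell by 0.63 (SE 0.09, adjusted p = 0.00414 by limma).

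HNRNPR, a close relative of SYNCRIP with roles in mRNA transport and stability, measured 10.99, 10.88 and 11.12 with SB216763, against 11.37 and 11.38 in controls, and fell by 0.37 (SE 0.09, adjusted p = 0.0365 by limma). HNRNPK, which binds C-rich stretches through KH domains, measured 11.94, 11.79 and 11.96 with SB216763, against 12.19 and 12.31 in controls. It fell by 0.35 (SE 0.09, adjusted p = 0.0427 by limma). In both genes the highest SB216763 array lay below the lower control. HNRNPF, which binds runs of G, measured 10.72, 10.63 and 10.70 with SB216763, against 10.96 and 10.98 in controls, and fell by 0.28 (SE 0.08, adjusted p = 0.0495 by limma), just inside the threshold.

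**Figure D3:**
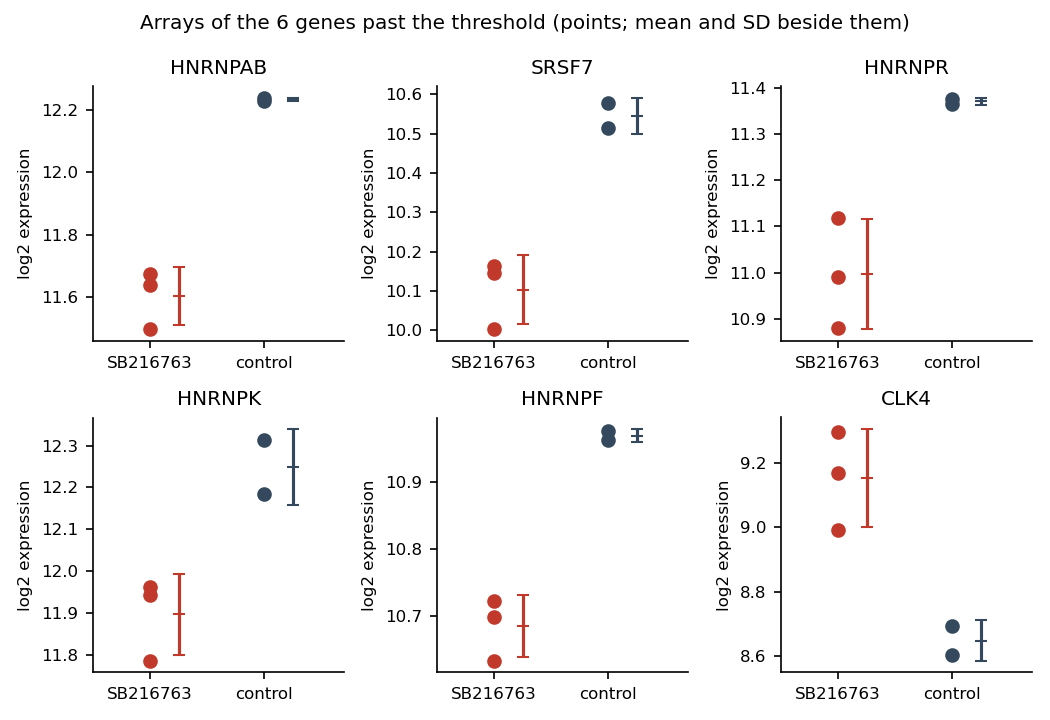
Log2 expression of the 6 genes past the threshold on each array, SB216763 left and control right, with the group mean and SD beside the points (n = 3 and 2) and each panel on its own axis. In each panel the groups are apart; CLK4 is higher with SB216763 and the other 5 genes are lower.

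These calls rested on both control arrays. HNRNPAB passed without any 1 of the SB216763 arrays, and lost its call without control replicate 1 or control replicate 2, where its limma adjusted p reached 0.0870 at most and its difference stayed between -0.66 and -0.58. SRSF7, HNRNPR and CLK4 passed when SB216763 replicate 2 or SB216763 replicate 3 was left out, but lost their calls without SB216763 replicate 1 or either control. Their differences lay between -0.47 and -0.39 for SRSF7, between -0.44 and -0.32 for HNRNPR and between 0.43 and 0.58 for CLK4 whichever array was left out. HNRNPK and HNRNPF lost their calls without any 1 of the 5 arrays, while their differences lay between -0.42 and -0.29 and between -0.30 and -0.26. Over the 37 genes, limma called 0 without control replicate 1, where 0.00543% of all genes passed, and 0 without control replicate 2, where 0% did. At an unadjusted p under 0.05, 1 gene was higher and 11 lower without control replicate 1 (9.24% and 10.3% of all genes), and 2 were higher and 6 lower without control replicate 2 (12.5% and 8.98%). Without SB216763 replicate 1 HNRNPAB alone passed (5.39% of all genes, 2.93% higher and 2.46% lower). Without SB216763 replicate 2 the 5 calls were CLK4 and HNRNPA1L2 higher and HNRNPAB, HNRNPR and SRSF7 lower (15.5% of all genes, 9.12% higher and 6.4% lower), and without SB216763 replicate 3 the 4 calls were CLK4, HNRNPAB, HNRNPR and SRSF7 (8.72%, 4.39% and 4.33%).

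Among the hnRNP genes short of the threshold, HNRNPD, also known as AUF1, a regulator of mRNAs with AU-rich elements, was chosen for its arrays after its values were seen and measured 11.59, 11.39 and 11.67 with SB216763, against 12.07 and 11.81 in controls. It is 1 of 4 members in which control replicate 2 was the lower control, and its difference of -0.39 (SE 0.12) had a limma adjusted p of 0.0692. HNRNPDL, its paralogue on the same chromosome, differed by 0.01 (SE 0.10), and this sign turned under other settings. HNRNPH3 differed by -0.35 (SE 0.10, limma adjusted p = 0.0673), with groups apart.

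HNRNPA2B1, which binds UAG-containing silencers and is among the most studied hnRNPs, measured 11.65, 11.44 and 11.71 with SB216763, against 11.77 and 11.90 in controls. Its groups did not overlap, and the difference was -0.23 (SE 0.10, limma adjusted p = 0.207). HNRNPM and HNRNPL, the second a reader of CA repeats, differed by -0.21 and -0.20 and did not pass either. Their groups did not overlap, but for HNRNPM the highest SB216763 array (11.775) lay just below the lower control (11.780). The HNRNPL relative HNRNPLL, known in T cells for silencing CD45 exons, differed by 0.08 with overlapping groups. HNRNPH1, HNRNPA0, HNRNPU and HNRNPUL1 differed by between -0.14 (HNRNPH1) and 0.08 (HNRNPUL1).

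HNRNPA1, a repressor that antagonises SRSF1 in splice site choice, measured 7.52, 7.29 and 7.79 with SB216763, against 7.19 and 7.41 in controls. The groups overlapped and the difference of 0.23 (SE 0.15) had a limma adjusted p of 0.381. The probe used for HNRNPA1 is annotated with 1 transcript record, while its brighter probes also name copies and pseudogenes and are given with the closing observations. HNRNPA1L2, a near-identical copy of HNRNPA1, averaged 7.42 ± 0.15 (SD, n = 3) with SB216763 and 7.09 ± 0.12 (SD, n = 2) in controls. All 3 SB216763 arrays were higher than both controls, with a difference of 0.33 (SE 0.11, limma adjusted p = 0.0924), and which copy its probe reads is uncertain. HNRNPCL1 and HNRNPCL2, copies related to HNRNPC, were not above background on any array. HNRNPC itself had no probe naming only that gene.

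Promoter windows from RefSeq (GRCh38.p14), each 300 bases from 250 before to 50 after an annotated start, were matched for 34 of the 37 genes; HNRNPA1, SRSF2 and TRA2A had none. They are shown for the member with the largest decrease, for the SR protein gene that fell, for another hnRNP gene that fell and for the gene that rose, because genes that moved the same way may be compared by what lies at their start. Capitals mark CCAAT or its reverse complement ATTGG, the CCAAT box, and CACGTG, the E-box bound by MYC and MAX. The HNRNPAB window is chr5:178204283-178204582 on the plus strand, the SRSF7 window chr2:38751312-38751611, the HNRNPR window chr1:23344235-23344534 and the CLK4 window chr5:178627001-178627300, the last 3 on the minus strand.
HNRNPAB: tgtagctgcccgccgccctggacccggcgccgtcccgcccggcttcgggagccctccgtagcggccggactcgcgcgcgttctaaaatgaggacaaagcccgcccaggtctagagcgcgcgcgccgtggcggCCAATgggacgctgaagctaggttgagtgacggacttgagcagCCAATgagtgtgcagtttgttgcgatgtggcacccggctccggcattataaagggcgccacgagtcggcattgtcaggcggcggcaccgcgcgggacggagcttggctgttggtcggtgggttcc
SRSF7: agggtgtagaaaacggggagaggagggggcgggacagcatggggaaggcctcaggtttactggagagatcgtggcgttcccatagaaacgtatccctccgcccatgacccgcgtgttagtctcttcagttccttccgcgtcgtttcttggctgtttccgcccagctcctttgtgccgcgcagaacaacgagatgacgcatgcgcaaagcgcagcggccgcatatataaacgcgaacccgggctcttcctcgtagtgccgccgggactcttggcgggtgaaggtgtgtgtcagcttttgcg
HNRNPR: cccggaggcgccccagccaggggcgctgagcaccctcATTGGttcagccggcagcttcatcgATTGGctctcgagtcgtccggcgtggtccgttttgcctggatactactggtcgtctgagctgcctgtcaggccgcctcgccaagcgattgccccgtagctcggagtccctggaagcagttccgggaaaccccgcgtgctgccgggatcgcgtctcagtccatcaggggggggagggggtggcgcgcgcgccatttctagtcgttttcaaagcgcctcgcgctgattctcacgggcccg
CLK4: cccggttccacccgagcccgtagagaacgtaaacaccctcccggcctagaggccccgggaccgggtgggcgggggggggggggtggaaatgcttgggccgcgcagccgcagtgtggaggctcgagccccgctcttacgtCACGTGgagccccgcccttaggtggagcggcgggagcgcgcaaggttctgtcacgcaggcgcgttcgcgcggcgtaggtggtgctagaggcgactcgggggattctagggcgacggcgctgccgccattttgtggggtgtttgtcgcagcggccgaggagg

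The HNRNPAB window held 2 CCAAT boxes, whose first bases lay 118 and 75 bases before the start. HNRNPR held 2 as well, 213 and 188 bases before its start. At least 1 window of HNRNPK and HNRNPF also had a CCAAT box, so 4 of the 5 genes that fell had one; neither SRSF7 window did. Over all members with a window, 18 of 34 genes had a CCAAT box (52.9%), against 39.7% of 27305 genes with a RefSeq window. Members had more windows per gene, 50 for 34 genes against 35116 for all genes, and per window the shares were 42% and 34.6%. Member windows also had a higher median GC content, 64.3% against 58.7%. CLK4 was the 1 gene of the 6 with an E-box, 111 bases before its start. An E-box was found in 7 of the 34 member genes (20.6%), namely CLK2, CLK4, HNRNPD, HNRNPDL, HNRNPH3, HNRNPM and HNRNPUL1, against 8.77% of all genes with a window, or 16% against 7.26% per window. MYC, whose protein binds that motif, measured 9.74, 9.72 and 9.80 with SB216763, against 10.75 and 10.86 in controls, and fell by 1.05 (SE 0.08, adjusted p = 0.000588 by limma). Any part of it in these differences was not tested. The ETS motif CCGGAAG was in 6 member genes (17.6%, against 12.2%), HNRNPF among them, and the cAMP response element TGACGTCA in 0 of 34 (against 2.25%). All motifs were searched on both strands, and a match describes letters in a window, not a bound site.

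The members sit among other splicing genes, which were counted in 7 lists with 146 measured genes, chosen with earlier results of these data known. Of the 146, 7 rose and 20 fell, 18.5% of them against the 13.1% of all genes given above. By direction, 4.79% rose, against 7.21% of all genes, and 13.7% fell, against 5.92%. Of all genes above background on at least 2 arrays, fitted alone, 13.1% rose and 10.9% fell. These counts moved with the processing, and so did the shares of all genes. Without moderation 1 rose and 2 fell (0.684% and 0.679% of all genes). With all probes tested singly 1 and 9 passed (3.74% and 3.09%), and with the replicate number as a block 2 and 15 (5.11% and 4.83%). The counts were 16 and 23 with a variance trend and robust prior (9.17% and 7.81%). They were 22 and 24 with array weights (13.9% and 11.7%). Among genes above background on at least 2 arrays they were 12 and 23 (13.1% and 10.9%). In the kinases and importins that serve SR proteins and hnRNPs, the SR kinases SRPK1 and SRPK2 moved in opposite directions. SRPK1 measured 9.75, 9.67 and 9.77 with SB216763, against 10.25 and 10.32 in controls, and fell by 0.56 (SE 0.08, adjusted p = 0.00471 by limma). SRPK2 measured 9.24, 9.10 and 9.26 with SB216763, against 8.72 and 8.85 in controls. It rose by 0.41 (SE 0.09, adjusted p = 0.0228 by limma), and neither kinase had overlapping groups. SRPK1 passed in 11 of the 14 other settings, losing its call without moderation and without either control array, with differences from -0.59 to -0.52. SRPK2 passed in 7 of the 14, losing its call without moderation, with the replicate block, with all probes tested singly and without any 1 array other than SB216763 replicate 2, with differences from 0.35 to 0.48. The other 6 genes of this list, among them DYRK1B and TNPO2, did not pass.

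Of 32 measured U1, U2 and Sm or LSm snRNP proteins, 9 fell and 0 rose, while 23 missed the threshold, and the median was -0.19. The share that fell was 28.1%, against 5.92% of all genes, and 7.21% of all genes rose. Among genes above background on at least 2 arrays, fitted alone, 10 of the 32 fell, where 10.9% of those genes did. The lower count was 1 without moderation (0.679% of all genes), 3 with all probes tested singly (3.09%) and 1 without SB216763 replicate 1 (2.46%). It was 12 after quantile normalization (8.35%) and 11 with array weights (11.7%). The median of the list was -0.25 without control replicate 1 and -0.13 without control replicate 2. The 9 genes that fell in the reported fit included U2AF2, which recognises the polypyrimidine tract at the 3′ splice site, by 0.48 (SE 0.07). The Sm ring proteins SNRPB and SNRPD1 fell by 0.44 (SE 0.08) and 0.52 (SE 0.10), and the SF3b subunit PHF5A by 0.41 (SE 0.08). Limma adjusted p-values of U2AF2, SNRPB, SNRPD1 and PHF5A ran from 0.00698 to 0.0168. At an unadjusted p under 0.05, 3 of the 32 were higher and 13 lower by limma, where 14.3% of all genes were higher and 12.2% lower. Of 26 tri-snRNP, PRPF19 complex and helicase genes, 4 fell and 0 rose, with 0 higher and 6 lower at an unadjusted p under 0.05. The 4 were PRPF31 and PRPF4 of the U4/U6 particle, by 0.44 and 0.40, SNRNP40 of U5, by 0.48, and the ubiquitin ligase PRPF19, by 0.31. They are 15.4% of that list, against 5.92% of all genes called lower, and 7.21% of all genes rose. In it 1 gene rose and 1 fell without moderation (0.684% and 0.679% of all genes). The counts were 0 and 2 with all probes tested singly (3.74% and 3.09%), and 0 and 0 without SB216763 replicate 1 (2.93% and 2.46%). They were 0 and 6 after quantile normalization (7.3% and 8.35%) and 0 and 5 with array weights (13.9% and 11.7%).

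Of 26 SR-related proteins, 3 were higher and 1 lower at an unadjusted p under 0.05 by limma (14.3% and 12.2% of all genes). After adjustment 2 rose and 0 fell. The 7.69% that rose is near the 7.21% of all genes, of which 5.92% fell. The 2 were the cyclin L genes CCNL1, by 0.40 (SE 0.10, adjusted p = 0.0373 by limma), and CCNL2, by 0.32 (SE 0.08, adjusted p = 0.0396), whose products pair with CDK11 and locate to nuclear speckles. ACIN1 and U2SURP followed with 0.20 and -0.24 and did not pass. The higher count of this list was 0 without moderation (0.684% of all genes), with the replicate block (5.11%) and with all probes tested singly (3.74%). It was also 0 without SB216763 replicate 1 (2.93%) or SB216763 replicate 3 (4.39%), and 4 with array weights (13.9%). Of 34 other hnRNP-type and splicing regulators, 3 rose and 4 fell, 8.82% and 11.8%, against 7.21% and 5.92% of all genes. The counts were 0 and 0 without moderation (0.684% and 0.679% of all genes). They were 1 and 2 with the replicate block (5.11% and 4.83%) and 10 and 5 with array weights (13.9% and 11.7%). Without SB216763 replicate 1, 0 rose and 1 fell (2.93% and 2.46%). QKI, an exon regulator known from myelination, rose by 0.48 (SE 0.08), and PCBP3 and TIA1, named after their values were seen, by 0.35 and 0.41. PUF60, a U2AF-related factor, fell by 0.47 (SE 0.08), CELF2 by 0.48 (SE 0.09), ELAVL1, the mRNA-stabilising protein HuR, by 0.38 (SE 0.08), and DAZAP1, named after its value was seen, by 0.33.

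Of 12 genes of nonsense-mediated decay and the exon junction complex, EIF4A3, the helicase that anchors that complex, fell by 0.31 (SE 0.08, adjusted p = 0.0458 by limma). The other 11 did not pass, including the kinase SMG1 at 0.30 (limma adjusted p = 0.0562), CASC3 at 0.29 and UPF1 at -0.17. The 8.33% that fell is near the 5.92% of all genes, and 0 rose, against 7.21%. The lower count of this list was 0 without moderation (0.679% of all genes), with the replicate block (4.83%) and with all probes tested singly (3.09%). It was also 0 without SB216763 replicate 1 (2.46%), SB216763 replicate 2 (6.4%) or SB216763 replicate 3 (4.33%). The higher count was 2 after quantile normalization (7.3% of all genes), with a variance trend and robust prior (9.17%) and with array weights (13.9%). It was also 2 among genes above background on at least 2 arrays (13.1%) and without SB216763 replicate 2 (9.12%). Of 8 genes of the minor spliceosome, RNPC3 rose by 0.55 (SE 0.13, adjusted p = 0.0320 by limma) and SNRNP25 fell by 0.40 (SE 0.10, adjusted p = 0.0322), both being proteins of the U11/U12 particle. ZRSR2, which recognises the 3′ splice site of minor introns, differed by 0.38 (limma adjusted p = 0.0507), and SNRNP35 by 0.09. In this list 12.5% rose and 12.5% fell, against 7.21% and 5.92% of all genes. Both counts were 0 without moderation (0.684% and 0.679% of all genes) and with all probes tested singly (3.74% and 3.09%). They were also 0 without SB216763 replicate 1 (2.93% and 2.46%) or SB216763 replicate 3 (4.39% and 4.33%). With array weights 2 rose and 1 fell (13.9% and 11.7%). Over the 7 lists limma called 0 genes without control replicate 1, where 11 were higher and 30 lower before adjustment (p under 0.05; 9.24% and 10.3% of all genes), and 0 without control replicate 2, where 11 were higher and 19 lower before adjustment (12.5% and 8.98%). The list genes called were 0 higher and 3 lower without SB216763 replicate 1 (2.93% and 2.46% of all genes), 15 higher and 18 lower without SB216763 replicate 2 (9.12% and 6.4%), and 2 higher and 14 lower without SB216763 replicate 3 (4.39% and 4.33%).

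**Figure D4:**
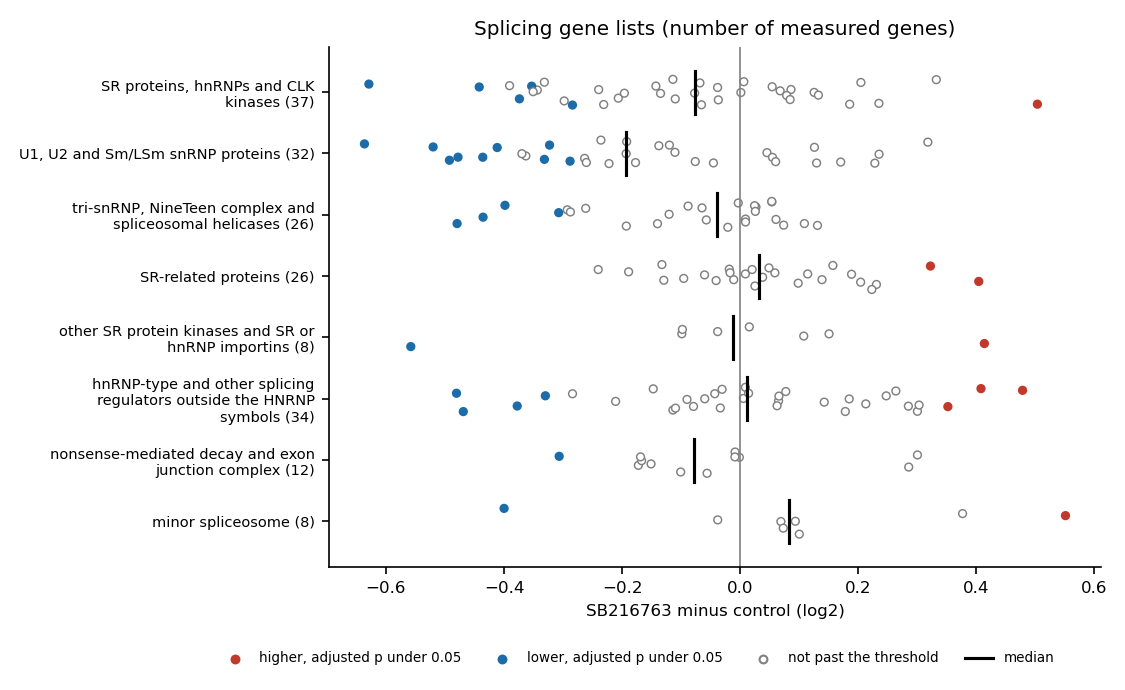
Difference between SB216763 and control (log2) of each measured gene in the 3 families and in the 7 other splicing lists, with a black bar at the median. Coloured points passed an adjusted p of 0.05; the snRNP list has 9 lower and 0 higher, and the 2 called genes of the kinase and importin list, SRPK1 and SRPK2, lie at opposite ends.

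The count of members called lower depended on the processing, and so did the share of all genes called. After quantile normalization 1 member was higher and 13 were lower, where 15.6% of all genes were called, 7.3% higher and 8.35% lower. With a variance trend and robust prior the counts were 1 and 10 (17% of all genes, 9.17% and 7.81%), and with array weights 4 and 10 (25.6%, 13.9% and 11.7%). When only genes above background on at least 2 arrays were tested they were 1 and 9 (24% of 12856 genes, 13.1% and 10.9%). With each array centred on its median they were 1 and 8 (13.7%, 6.22% and 7.51%). Under these 5 settings SRSF7, HNRNPAB, HNRNPR, HNRNPK and HNRNPF were called in each, joined by HNRNPH3, SRSF10 and TRA2B in all 5 and by HNRNPD in 4. The mean of a gene's probes left the counts at 1 and 5 (13.1%, 7.19% and 5.89%), as did the replicate number as a block (9.94%, 5.11% and 4.83%). With all probes tested singly 0 were higher and 2 lower, HNRNPAB and SRSF7 (6.83%, 3.74% and 3.09%). Without moderation limma called 0 members (1.36%, 0.684% and 0.679% of all genes), with 2 higher and 8 lower before adjustment (11.4% and 9.87%).

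**Figure D5:**
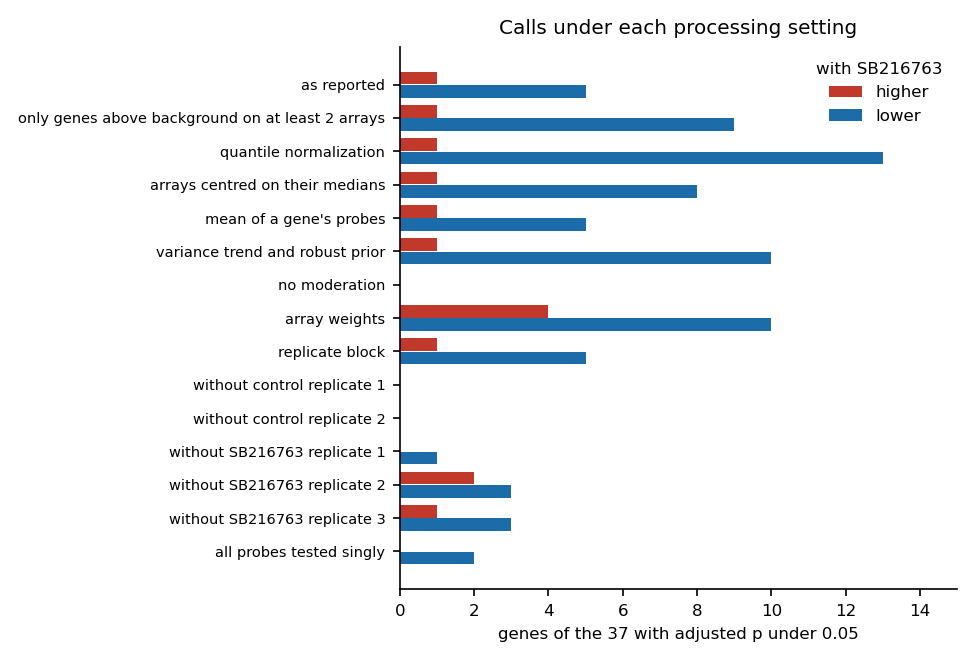
Number of the 37 genes with an adjusted p under 0.05 under the reported fit and 14 other settings, higher in red and lower in blue. The lower count runs from 0 to 13, and 0 genes are called without moderation and without either control array.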

How the data were processed

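Each of the 5 arrays has a column of log2 expression values in the table the authors deposited, with 33297 probes. The log2 scale was read from the range, 1.95 to 14.84. Affymetrix Expression Console made them, per the submitters' processing notes; how probes were summarised, and on which build, is not given in the sources used here. Array medians lay between 6.77 and 6.84, and no further normalization was applied. Sample titles gave groups and replicate numbers.

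Probes were named through the platform annotation: 19460 had 1 gene symbol, 1754 several and 12083 none. The test was limma (version 3.58.1, run in R 4.3.3; lmFit, eBayes, 7.62 total degrees of freedom), two-sided, with p-values adjusted by Benjamini and Hochberg's method across 18417 genes and called under 0.05. The members, lists and tests were chosen with earlier results of these data known. Per-array values are given for members past the threshold and for a named set of others whatever their result. Chosen after their values were seen, SRSF10 and HNRNPD are given in the same way. Outside that set, they are also given for SRPK1, SRPK2, MYC, the second TRA2A probe and 1 probe naming HNRNPA1 with its copies. Of each list up to 4 genes with the smallest p are named, with PCBP3, TIA1 and DAZAP1 named in addition. The number of arrays limits the precision. The 14 other settings are given with the results and in the closing section. Software for tables was pandas 2.3.3, and for figures matplotlib 3.10.9.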

Additional observations from a re-analysis of the deposited data

How the results depend on the processing

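The numbers of all genes called higher and lower, 1328 and 1090, were 126 and 125 without moderation, 2568 and 2152 with array weights and 689 and 569 with all probes tested singly. When each array was left out in turn they ran from 0 to 1680 and from 0 to 1179. Splicing members called higher, 1 in the reported fit, were 4 with array weights, 0 without moderation and 0 with all probes tested singly, and 0 to 2 when each array was left out. Members called lower, 5 in the reported fit, were 9 among genes above background on at least 2 arrays, 13 after quantile normalization, 8 with centred arrays, 10 with a variance trend and robust prior, 10 with array weights, 0 without moderation, 2 with all probes tested singly and 0 to 3 when each array was left out. The cause was not tested, beyond the fewer arrays or genes that a setting leaves. With the replicate number as a block (replicate block) 1 member was higher and 5 were lower, HNRNPD and HNRNPH3 taking the place of HNRNPK and HNRNPF. The labels do not say that equal numbers mark shared cultures, and deviations of equally numbered arrays correlated at -0.052 and -0.104. Of 515 single-gene results under other settings, 437 kept direction and side of the threshold, 33 lost the call, 31 gained it and 14 changed sign, the last for genes that did not pass. All 33 lost calls were among the 6 genes called in the reported fit, while most of the 437 results were of genes not called. Of the 9 other settings that kept all arrays, HNRNPAB and SRSF7 passed in 8. CLK4 and HNRNPR passed in 7 of these 9, and HNRNPK and HNRNPF in 6. HNRNPDL was -0.013 after quantile normalization, -0.0293 with centred arrays, -0.0434 with the block and -0.0522 to 0.0774 with an array left out. HNRNPCL2 was -0.0344 with centred arrays, -0.0054 with array weights, -0.0071 with the block and -0.0071 to 0.0082 with an array left out, and SRSF5 was -0.0062 after quantile normalization. SRSF11 and TRA2A ran from -0.0324 to 0.1405 and from -0.1007 to 0.273 with an array left out. With a control array left out, the lone control is assumed to vary like the SB216763 arrays.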

Other observations

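Some hnRNP genes were read by probes that name several genes, which stayed out of the counts above. The 4 bright probes naming HNRNPA1 together with its copies differed by 0.24, 0.21, 0.21 and 0.18, with limma adjusted p-values over all probes between 0.320 and 0.377. On the brightest of them the SB216763 arrays measured 13.38, 13.24 and 13.38, against 13.04 and 13.26 in controls, so that SB216763 replicate 2 lay below control replicate 2. The 3 probes of HNRNPA3 with its pseudogene differed by -0.12, -0.11 and -0.07, and the 2 probes naming HNRNPC with its copies by 0.03 and 0.02. HNRNPH2, together with a read-through transcript, differed by -0.23 (SE 0.14), and HNRNPUL2, with its read-through transcript, by -0.17 (SE 0.09). The probe naming that read-through transcript and BSCL2 differed by -0.0003. None of these 12 probes passed an adjusted p of 0.05 by limma.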
